A study of Mus musculus with 23 samples.

Results

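The 10 genes described here encode chaperones and other proteins of the endoplasmic reticulum (ER), most of them textbook targets of the unfolded protein response: Hspa5, Hsp90b1, Calr, Pdia4, Dnajb9, Sdf2l1, Herpud1, Xbp1, Manf and Rrbp1. They were chosen by name, as ER chaperones, targets of XBP1 and ATF6 and a ribosome-binding protein of the ER, from the 35976 genes of the deposited count table. Earlier results of these data were known when they were chosen. All 10 were among the 16121 genes with enough counts to be tested. Libraries were made from striatal microglia, the resident macrophages of that brain region. The donors were male C57BL/6J mice, labelled as 9 weeks old, which pressed a lever for intravenous infusions in daily 2-hr sessions over 15 days.

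The Abstinence group (n = 7 libraries) had self-administered methamphetamine, a psychostimulant, at 0.05 mg/kg per infusion and then spent 21 days in the home cage without it. The Maintenance group (n = 8) had self-administered methamphetamine at the same dose and was taken immediately after the last session. The Saline group (n = 8) had self-administered saline on the same schedule and was also taken immediately after the last session. All mice carried a catheter and no genetic change is named in the labels. No saline group kept for the further 21 days was analysed here, so that drug history, age and time in the home cage cannot be told apart in comparisons with Abstinence. The labels do not say that each replicate is a separate mouse, and p-values measure only the spread between these libraries.

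The ER folds proteins that are secreted or placed in membranes. Its Hsp70 chaperone BiP, the product of Hspa5, binds unfolded chains and also holds the stress sensors IRE1, PERK and ATF6 in check. When unfolded protein draws BiP away, ATF6 is cleaved to a transcription factor, IRE1 splices Xbp1 mRNA so that it encodes one, and PERK slows translation through eIF2α and favours ATF4, which together raise chaperones, folding enzymes and the machinery that removes misfolded proteins.

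At the end of methamphetamine taking, 2 of the 10 genes were higher than in Saline microglia: Rrbp1, which encodes a ribosome-binding protein of the rough ER membrane, by 1.55-fold, and Hspa5 by 1.3-fold. Both were lower again in Abstinence than in Maintenance libraries, Rrbp1 at 0.501 and Hspa5 at 0.775 of the Maintenance level. Hsp90b1, Herpud1, Dnajb9 and Manf averaged 1.16 to 1.22 times their Saline level in Maintenance without passing the test, while Pdia4, Xbp1 and Calr lay between 0.971 and 1.05 times that level and Sdf2l1 was at 0.878 of it, also without passing. No member passed in Abstinence against Saline.

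Counts per library summed to between 55 M and 94.8 M (median 75.4 M), with 12459 to 17034 genes detected. The 12 microglial markers, among them Tmem119, P2ry12 and Cx3cr1, summed to 56000 to 65000 CPM (counts scaled to a common library total of 1 M) in Abstinence, 44100 to 66000 in Maintenance and 52900 to 67500 in Saline libraries, with none of the 12 at 0 in a group; a tissue label reads neuronal. Maintenance 8 stood apart: 12 markers of choroid plexus and ependymal cells summed to 75700 CPM in it, against at most 339 CPM in the other Maintenance libraries, and Ttr reached 40500 CPM against at most 55.6 CPM elsewhere. The 12 neutrophil markers were lower in both methamphetamine groups, with summed levels of 11.2 to 150 CPM in Abstinence, 4.41 to 167 CPM in Maintenance and 45.4 to 813 CPM in Saline libraries, and the difference in their mean log2 CPM had an adjusted p of 0.0436 in both comparisons with Saline by a two-sided exact permutation test (33 tests). Of these 12 markers, 4 were at 0 in all Abstinence libraries, 3 in all Maintenance libraries and 0 in all Saline libraries. Oligodendrocyte markers summed to 1870 to 4810 CPM in Abstinence, 1340 to 5420 CPM in Maintenance and 656 to 5490 CPM in Saline libraries, with adjusted p of 0.211 for Abstinence and 0.306 for Maintenance against Saline. In RNA from bulk isolates, fewer cells of a type and less RNA per cell cannot be told apart.

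The comparison of Maintenance with Saline addresses what microglial RNA looks like directly after the last of the daily methamphetamine sessions. Of all 16121 genes tested, 0.707% passed at an adjusted p under 0.05 (edgeR's quasi-likelihood test with Benjamini-Hochberg adjustment), and 0.335% passed as higher, while 2 of the 10 ER genes passed, both as higher. Groups that did not overlap were found for 0.416% of all genes and for 1 of the 10, Rrbp1. The median log2 fold change of the 10 genes was 0.22, with 7 positive and 3 negative, beside a median of 0.005 over all genes tested, of which 50.6% were positive. The 10 were chosen with earlier results of these data known. Their counts beside the shares of all genes are therefore a description, here and in the later comparisons.

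**Figure D1:**
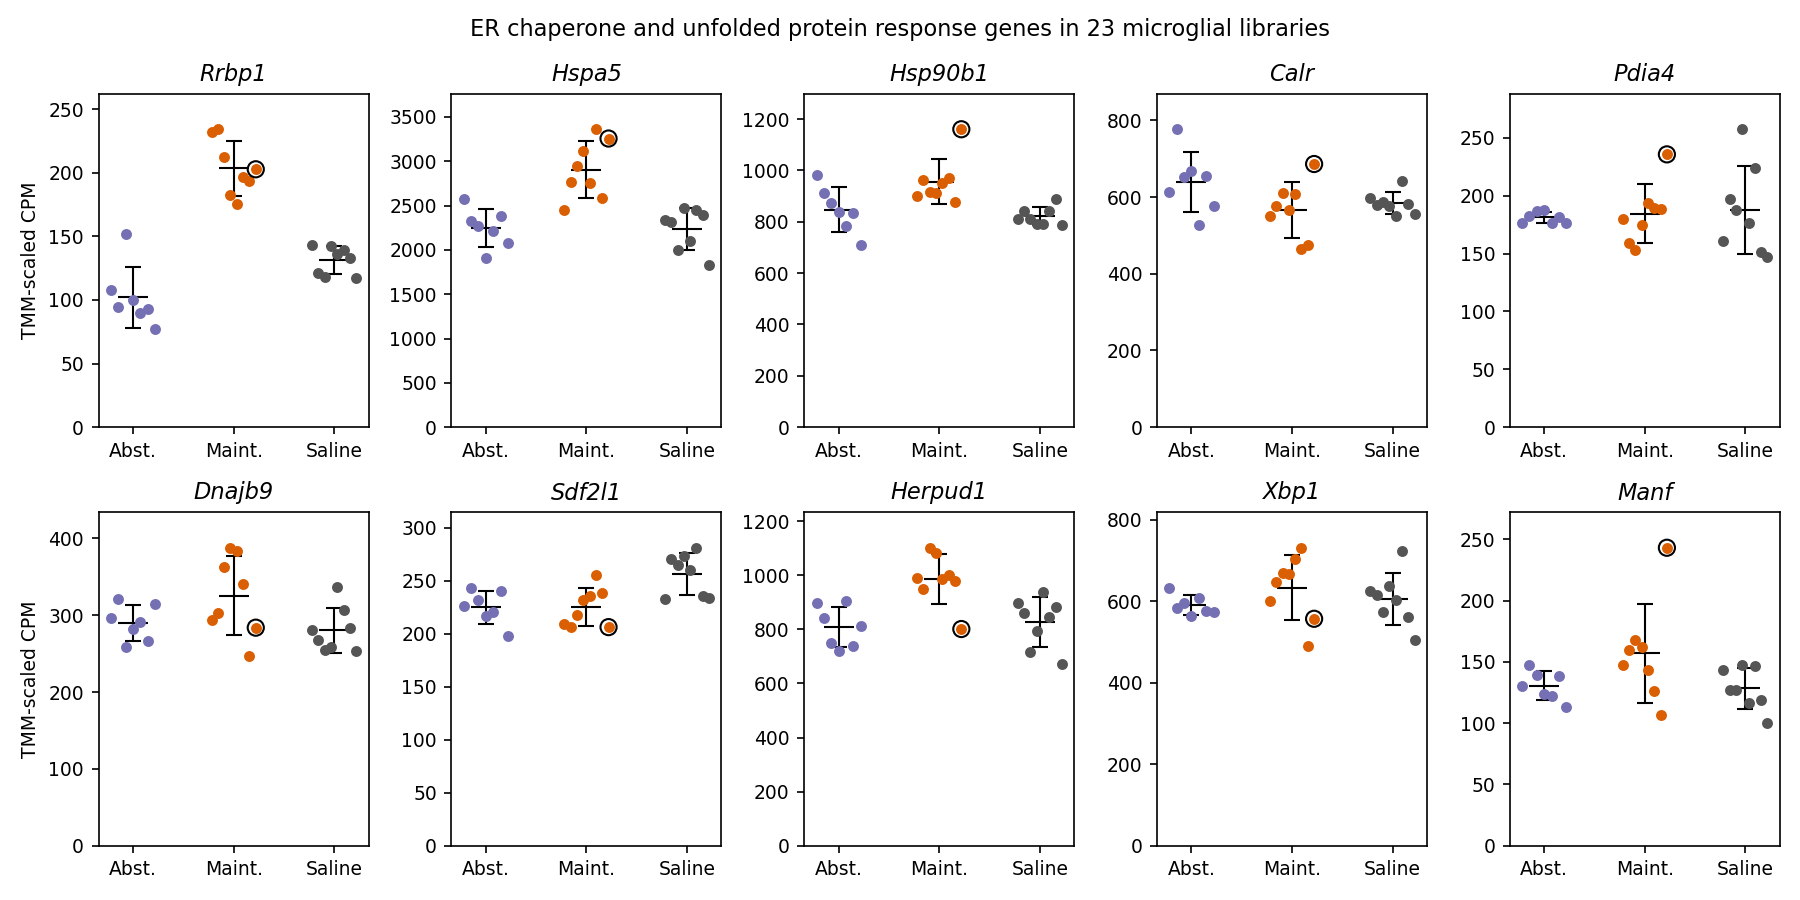
Level of each of the 10 genes in every library, as TMM-scaled CPM on a linear axis from 0, with Abstinence left (n = 7), Maintenance in the middle (n = 8) and Saline right (n = 8). Points are libraries, the black bars are the mean ± SD and the open circle marks Maintenance 8; all 8 Maintenance points of Rrbp1 lie above the highest Saline point and all 7 Abstinence points lie below the lowest Maintenance point.

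Rrbp1 lies on chromosome 2 (143947395 to 144011296, GRCm38.p6), and its product anchors ribosomes and shapes the sheets of the rough ER. Its level ranged from 175 to 234 CPM with a median of 199.5 CPM in Maintenance libraries, against 117 to 143 CPM with a median of 134 CPM in Saline libraries. Every Maintenance library was therefore above every Saline library, and the lowest Maintenance value exceeded the highest Saline value by more than the SD of either group (mean 204 ± 21.6 CPM in Maintenance and 131 ± 10.8 CPM in Saline, SD, n = 8 each). The log2 fold change was 0.63 ± 0.10 (SE, adjusted p = 0.00124). It was 0.63 ± 0.10 without Maintenance 8 (adjusted p = 0.00172) and 0.67 ± 0.15 when neutrophil and oligodendrocyte marker means were added as covariates, where its adjusted p of 0.0635 no longer passed.

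Hspa5 lies on chromosome 2 (34772090 to 34776529). Maintenance libraries held 2456 to 3361 CPM with a median of 2859 CPM, against 1833 to 2468 CPM with a median of 2326 CPM in Saline libraries. All 8 Maintenance libraries were above the Saline median and 7 were above the highest Saline library, the exception being Maintenance 1. Means were 2905 ± 322 CPM in Maintenance and 2238 ± 233 CPM in Saline (SD, n = 8 each), a log2 fold change of 0.38 ± 0.07 (SE, adjusted p = 0.0134). The change was 0.35 ± 0.07 without Maintenance 8 (adjusted p = 0.0163) and 0.34 ± 0.07 without Saline 8, the lowest Saline library (adjusted p = 0.0184). It did not pass in the subset of 17 libraries listed in another deposited table (0.29 ± 0.07, adjusted p = 0.0666) or with the 2 marker means as covariates (0.45 ± 0.10, adjusted p = 0.0807). Hspa5 shares bases with Rabepk, which averaged 12.3 CPM and had a log2 fold change of -0.03 ± 0.18 in this comparison (adjusted p = 0.973). The reads' strand and the assignment of reads in the shared bases are not given in the sources used here. The part of such reads in the Hspa5 count was not tested.

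Promoter sequences of Hspa5, Hsp90b1 and Rrbp1 are shown as examples with and without the element best known from ER chaperone genes. Whether this element takes part in any change of these genes was not tested. ATF6 and its partner NF-Y are known to bind the ER stress response element, ERSE, which was searched as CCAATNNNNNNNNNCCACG, and ERSE-II, searched as ATTGGNCCACG, on both strands of the RefSeq window from 250 bases before to 50 after each start site (GRCm38.p6). Capitals mark matches in the bases before the start, each written 5′ to 3′ along the gene's strand. They cover chr2:34771840-34772089, plus strand, for Hspa5, chr10:86705445-86705694, minus strand, for Hsp90b1, and chr2:144011297-144011513, minus strand, for Rrbp1. The Rrbp1 stretch shown is 217 bases long and does not reach the start site of its window. Bases that another transcript of the gene covers were left out of it, but not of the search.
Hspa5: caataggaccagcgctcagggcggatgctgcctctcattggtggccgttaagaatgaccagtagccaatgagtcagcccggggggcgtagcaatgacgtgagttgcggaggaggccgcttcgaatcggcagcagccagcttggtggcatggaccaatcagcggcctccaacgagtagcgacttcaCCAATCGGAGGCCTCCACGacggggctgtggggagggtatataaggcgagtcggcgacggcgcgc
Hsp90b1: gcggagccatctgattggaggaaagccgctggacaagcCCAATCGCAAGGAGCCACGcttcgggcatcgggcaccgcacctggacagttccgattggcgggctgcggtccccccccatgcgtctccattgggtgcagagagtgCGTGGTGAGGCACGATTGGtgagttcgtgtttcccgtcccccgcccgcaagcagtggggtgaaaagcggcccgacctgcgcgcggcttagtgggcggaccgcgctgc
Rrbp1: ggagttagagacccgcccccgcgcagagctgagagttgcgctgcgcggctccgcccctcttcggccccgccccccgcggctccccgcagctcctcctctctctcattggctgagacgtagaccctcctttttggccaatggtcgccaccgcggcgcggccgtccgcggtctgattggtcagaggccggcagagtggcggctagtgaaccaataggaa

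The Hspa5 match lay 65 to 47 bases before the start, Hsp90b1 held 1 match on each strand, at 212 to 194 and 107 to 89 bases, and the Rrbp1 window held no match. ERSE was found in 0.137% of the 27025 genes with a window (37 genes) and in 3 of the 9 members with one, Hspa5, Hsp90b1 and Calr. ERSE-II was found in 0.0444% of genes and in 1 member, Herpud1, and no match of the 2 kinds overlapped in a member. Members were picked in part as targets of ATF6 and XBP1, so a higher share of these elements among them was built into the choice. The core of the XBP1-bound UPR element, TGACGTGG, was present in 0.714% of genes and a heat shock element, GAANNTTCNNGAA, in 0.662%, each in 0 members. A missing match says only that these letters are not in the window. Of the 37 genes with an ERSE, 21 were tested, 1 of them rose in Maintenance against Saline (Hspa5) and their median log2 fold change was 0.03. Without the members, 0 of 18 passed and the median was 0.02, beside 0.707% of all genes passing. A list this short cannot show whether genes with an ERSE responded. In Calr and Herpud1 the matches lay 162 to 144 and 52 to 42 bases before the start, shown with 20 bases on either side (chr8:84847055-84847113, minus strand, and chr8:94386357-94386407, plus strand).
Calr: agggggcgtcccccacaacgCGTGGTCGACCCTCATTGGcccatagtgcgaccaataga
Herpud1: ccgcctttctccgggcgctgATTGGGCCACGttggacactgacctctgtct

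Among the other chaperones and folding enzymes of the ER lumen, Hsp90b1 encodes GRP94, the Hsp90 of the ER. It held 878 to 1160 CPM with a median of 932 CPM in Maintenance libraries, against 787 to 890.3 CPM with a median of 811 CPM in Saline libraries. As with Hspa5, 7 of 8 Maintenance libraries were above the highest Saline library, but the log2 fold change of 0.22 ± 0.06 did not pass (adjusted p = 0.0959). It was 0.17 ± 0.05 without Maintenance 8 (adjusted p = 0.124), and it passed with DESeq2 (adjusted p = 0.0102), limma voom (0.0262) and the stricter filter on low counts (0.0493).

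Calr encodes calreticulin, a calcium-binding chaperone that holds newly made glycoproteins. Its Maintenance libraries spread from 464 to 686 CPM around a median of 572 CPM, while Saline libraries lay between 551 and 643 CPM with a median of 581 CPM. The Saline range was inside the Maintenance range, the log2 fold change was -0.04 ± 0.08 (95% interval -0.19 to 0.11, adjusted p = 0.914), and with the marker covariates it was 0.04 ± 0.10. Pdia4, a protein disulfide isomerase, averaged 184 ± 25.4 CPM in Maintenance and 188 ± 38.1 CPM in Saline libraries (SD, n = 8 each), with a log2 fold change of -0.03 ± 0.10 (95% interval -0.22 to 0.17). With the marker covariates its sign turned and the value, 0.28 ± 0.11, lay outside that interval without passing (adjusted p = 0.449).

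The 2 members that assist BiP went apart in their values. Dnajb9, a J-domain co-chaperone of BiP also called ERdj4, ranged from 247 to 388 CPM (median 321 CPM) in Maintenance libraries and from 253 to 336 CPM (median 274 CPM) in Saline libraries. Its log2 fold change of 0.22 ± 0.08 did not pass (adjusted p = 0.266), but it was 0.28 ± 0.07 with limma voom (adjusted p = 0.0349) and 0.37 ± 0.08 in the subset of 17 libraries (adjusted p = 0.0284), where it passed. Sdf2l1, an ER-resident partner of the J-domain chaperones, was the member with the lowest fold change: 206 to 256 CPM (median 225 CPM) in Maintenance libraries against 233 to 281 CPM (median 263 CPM) in Saline libraries. All 8 Maintenance libraries were below the Saline median and 5 below the lowest Saline library, but the log2 fold change of -0.19 ± 0.06 did not pass over all genes (adjusted p = 0.155). It passed with limma voom (-0.25 ± 0.06, adjusted p = 0.0163) and was -0.09 ± 0.09 with the marker covariates (adjusted p = 0.892).

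Herpud1 encodes an ER membrane protein that helps to hand misfolded proteins to degradation. It held 801 to 1102 CPM with a median of 989.6 CPM in Maintenance libraries, against 673 to 939 CPM with a median of 853 CPM in Saline libraries. The 7 Maintenance libraries other than Maintenance 8 were all above the highest Saline library, and Maintenance 8 was below the Saline median. The log2 fold change was 0.26 ± 0.07 (adjusted p = 0.101) and became 0.29 ± 0.07 without Maintenance 8, where it passed (adjusted p = 0.0315). It also passed with DESeq2 (adjusted p = 0.012), limma voom (0.0133) and in the 17 libraries of the second table (0.0482).

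Xbp1, the transcription factor of the IRE1 branch, ranged from 490.4 to 731 CPM in Maintenance libraries and from 505 to 723 CPM in Saline libraries. The ranges nearly coincided, and the log2 fold change was 0.06 ± 0.07 (95% interval -0.08 to 0.21, adjusted p = 0.84), or 0.16 ± 0.10 with the marker covariates. Counts per gene add up spliced and unspliced Xbp1 mRNA, so that the splicing by IRE1 was not measured. Manf, a secreted protein that also binds BiP inside the ER, ranged from 106 to 243 CPM (median 154 CPM) in Maintenance libraries and from 100.4 to 147 CPM (median 127 CPM) in Saline libraries. Its log2 fold change of 0.29 ± 0.12 did not pass (adjusted p = 0.278) and was 0.17 ± 0.09 without Maintenance 8, the library with the 243 CPM, and 0.46 ± 0.15 with the marker covariates (adjusted p = 0.318).

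Maintenance 8, the library with choroid plexus markers, was the highest Maintenance library for Hsp90b1, Calr, Pdia4 and Manf and the lowest for Herpud1 and Sdf2l1. Neutrophil markers were lower in Maintenance than in Saline libraries, as given above; with their mean and that of the oligodendrocyte markers as covariates, the fold changes of Rrbp1 and Hspa5 were as large or larger while their adjusted p no longer passed and 0 of the 10 members did.

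**Figure D2:**
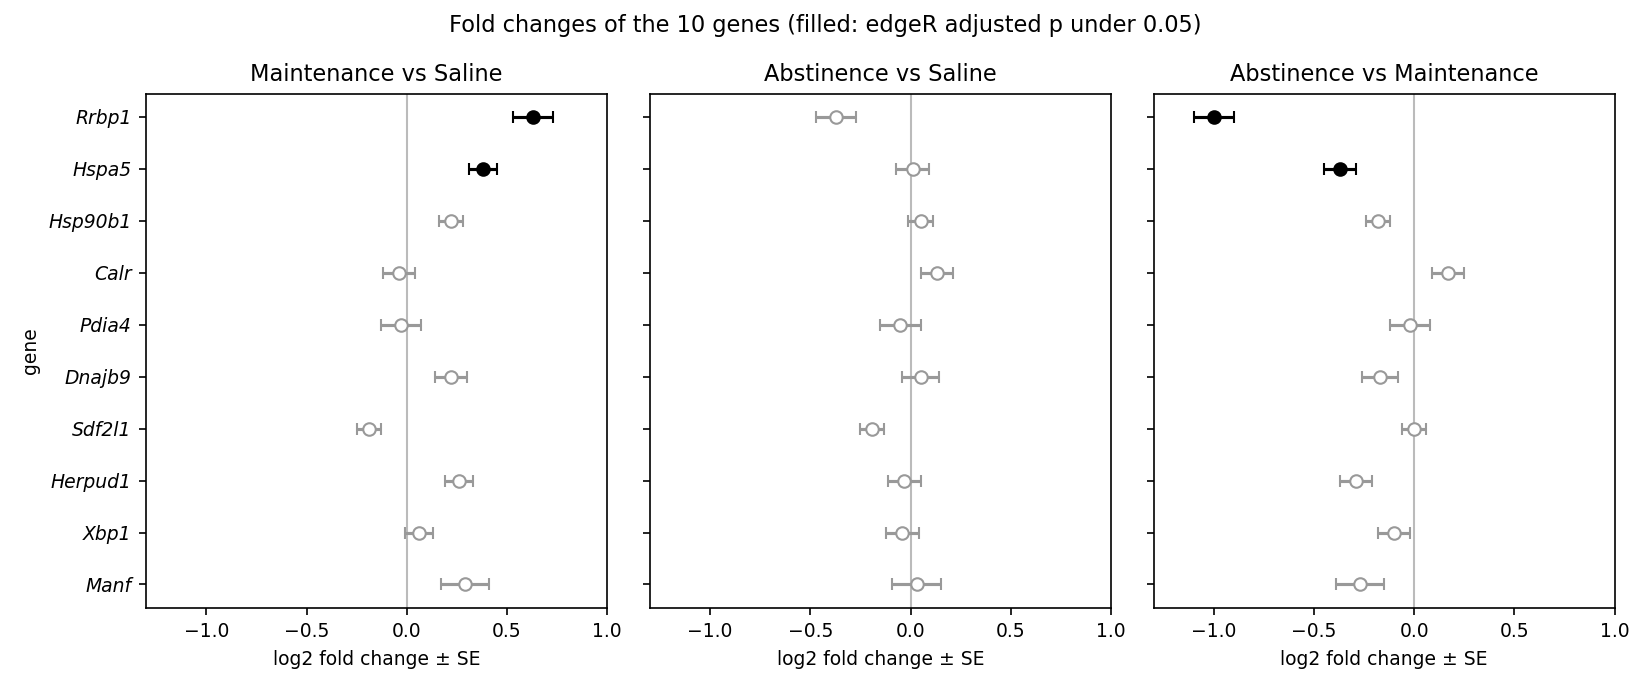
Log2 fold change ± SE of the 10 genes in Maintenance against Saline (left), Abstinence against Saline (middle) and Abstinence against Maintenance (right) on one axis, from 1 edgeR fit of all 23 libraries; filled points have an adjusted p under 0.05 over all 16121 genes. Rrbp1 at 0.63 and Hspa5 at 0.38 are filled at left, the same genes at -1 and -0.37 at right, and no point is filled in the middle.

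Comparing Abstinence with Maintenance asks how the level directly after the last session differs from that 21 days later, and it is also the test of whether the effects in the 2 methamphetamine groups, both measured against the same Saline libraries, differ. Of all genes tested, 0.949% passed and 0.552% passed as lower, while 2 of the 10 members passed, both as lower. The groups did not overlap for 0.403% of all genes and for 1 member, Rrbp1. The median log2 fold change of the members was -0.17, with 9 at or below 0 and Calr as the exception at 0.17 ± 0.08 (adjusted p = 0.395), beside a median of 0.006 over all genes.

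Rrbp1 ranged from 77.1 to 151 CPM with a median of 94.4 CPM in Abstinence libraries, against 175 to 234 CPM in Maintenance libraries. All 7 Abstinence libraries were below the lowest Maintenance library, and the highest of them, Abstinence 3, stood well above the next at 108 CPM. The log2 fold change was -1 ± 0.10 (adjusted p = 3.9e-06), the largest in size of the 10 genes, and -1.12 ± 0.08 without Abstinence 3 (adjusted p = 1.02e-08).

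Hspa5 ranged from 1907 to 2571 CPM with a median of 2270 CPM in Abstinence libraries, against 2456 to 3361 CPM in Maintenance libraries. In 6 of 7 Abstinence libraries it was below the lowest Maintenance library. The log2 fold change was -0.37 ± 0.08 (adjusted p = 0.0146). It lay between -0.39 and -0.32 under the alternatives tried other than leaving out single libraries, and passed in each of the 12.

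Herpud1 came next by size of p, with 720.1 to 904 CPM (median 811 CPM) in Abstinence libraries against 801 to 1102 CPM (median 989.6 CPM) in Maintenance libraries. All 7 Abstinence libraries were below the Maintenance median, but the log2 fold change of -0.29 ± 0.08 missed the threshold (adjusted p = 0.0605). Without Maintenance 8 it was -0.34 ± 0.07 and passed (adjusted p = 0.00873), and it passed in 7 of the 12 alternatives other than leaving out single libraries. Hsp90b1 had 711 to 983 CPM in Abstinence libraries and a log2 fold change of -0.18 ± 0.06 against Maintenance (adjusted p = 0.229). For Manf the fold change was -0.27 ± 0.12 (adjusted p = 0.392) and for Dnajb9 -0.17 ± 0.09 (adjusted p = 0.515). Xbp1 at -0.10 ± 0.08, Pdia4 at -0.02 ± 0.10 and Sdf2l1 at 0.00 ± 0.06 were closest to 0. For the neutrophil markers the 2 groups had a mean log2 CPM of -1.79 in Abstinence and -1.80 in Maintenance libraries (adjusted p = 0.988), and with the 2 marker means as covariates Hspa5 (-0.35 ± 0.08, adjusted p = 0.0176) and Rrbp1 (-1 ± 0.11, adjusted p = 1.31e-05) still passed.

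In Abstinence against Saline, which asks what remains of a difference 21 days after the last session, 3 of all genes tested passed (0.0186%) and 0 of the 10 members did. At an unadjusted p under 0.05 there were 707 of all genes and 2 members, Rrbp1 and Sdf2l1, and DESeq2 called 36 genes and 0 members. The groups did not overlap for 0.198% of all genes and for 0 members. The members' median log2 fold change was -0.01. In Maintenance against Saline the same unadjusted edgeR threshold was met by 1900 of all genes and 7 members. In Abstinence against Maintenance it was met by 1769 of all genes and 6 members.

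Rrbp1 in Abstinence lay on the other side of Saline from Maintenance: 6 of 7 Abstinence libraries were below the lowest Saline library, at 117 CPM, and Abstinence 3 was above the highest, at 143 CPM. Means were 102 ± 23.8 CPM in Abstinence (SD, n = 7) and 131 ± 10.8 CPM in Saline (SD, n = 8), and the log2 fold change of -0.37 ± 0.10 did not pass (adjusted p = 0.45). Without Abstinence 3 it was -0.49 ± 0.08 and passed (adjusted p = 0.0272), so that 1 library decides this call. Hspa5 averaged 2251 ± 215 CPM in Abstinence and 2238 ± 233 CPM in Saline libraries, with a 95% interval of -0.15 to 0.16 for its log2 fold change of 0.01.

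Sdf2l1 ranged from 198 to 243 CPM (median 226 CPM) in Abstinence libraries against 233 to 281 CPM (median 263 CPM) in Saline libraries. All 7 Abstinence libraries were below the Saline median, as all 8 Maintenance libraries were, and both comparisons share the Saline libraries. Its log2 fold change was -0.19 ± 0.06 (adjusted p = 0.678), and it passed with limma voom (adjusted p = 0.0423). Calr averaged 639 ± 78.7 CPM in Abstinence and 584.5 ± 28.1 CPM in Saline libraries, a log2 fold change of 0.13 ± 0.08 (adjusted p = 0.999). The other 6 members, Hsp90b1, Pdia4, Dnajb9, Xbp1, Herpud1 and Manf, lay between -0.05 and 0.05. Neutrophil markers were lower in Abstinence than in Saline libraries too; with marker covariates none of the 10 passed and several values moved. Rrbp1 was then at -0.33 ± 0.15, Sdf2l1 at -0.08 ± 0.09 and Calr at 0.22 ± 0.11. Pdia4 turned to 0.27 ± 0.11 and Xbp1 to 0.07 ± 0.10, while Manf was at 0.22 ± 0.15, Hsp90b1 at 0.11 ± 0.09 and Dnajb9 at 0.10 ± 0.13.

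**Figure D3:**
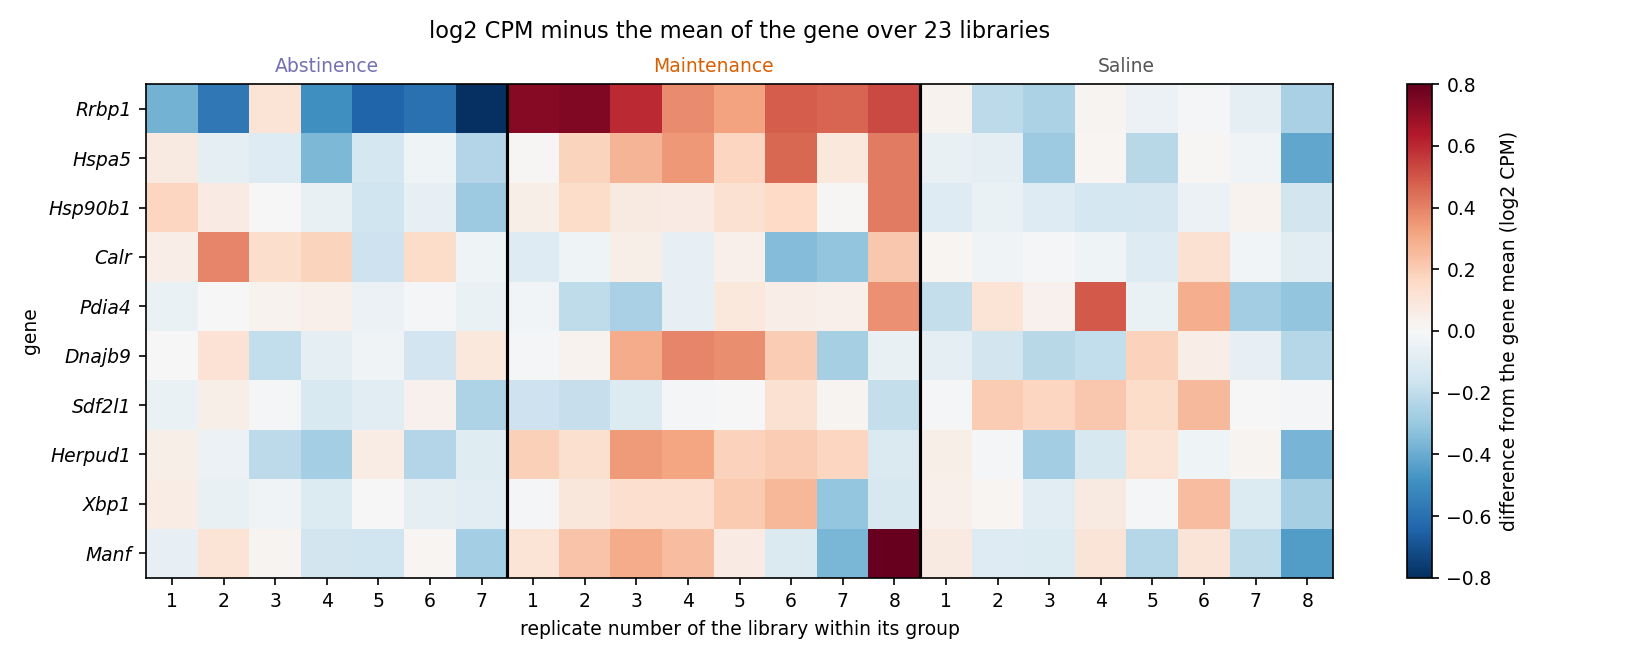
Log2 CPM of each gene (rows) in each library (columns) minus the gene's mean over the 23 libraries, red above and blue below 0 with colours saturating at 0.8 in either direction; libraries are numbered within Abstinence, Maintenance and Saline. The Rrbp1 row is red in all 8 Maintenance libraries and blue in 6 of 7 Abstinence libraries, Maintenance 8 has the deepest red for Manf, and Saline 8 is blue in most rows.

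Single libraries differed in how many of the 10 genes they held at a high level. Abstinence libraries had 1 to 6 members above the 23-library median (median 2), Maintenance libraries 6 to 10 (median 7) and Saline libraries 0 to 7 (median 3). Maintenance 5 had all 10 above, Saline 8 had 0 above and was the lowest of the 23 libraries for 4 members, and Abstinence 7 was the lowest for 3. The same count over all genes was not taken. Saline 8 held the highest Saline marker sums for oligodendrocytes (5490 CPM), choroid plexus and ependymal cells (293 CPM), astrocytes (797 CPM) and neurons (110 CPM). For the other marker lists another Saline library was highest. The part of other cells in these values was not tested. The spread also depended on the gene. Pdia4 had a coefficient of variation of 2.64% in Abstinence, 13.8% in Maintenance and 20.3% in Saline libraries, whereas Rrbp1 varied by 23.3% in Abstinence, 10.6% in Maintenance and 8.26% in Saline libraries.

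Levels per length set the genes in order. In CPM per kilobase of the longest protein-coding transcript (GENCODE M21), Hspa5 stood first in each group, with 613 ± 58.5 in Abstinence, 791 ± 87.6 in Maintenance and 609 ± 63.6 in Saline libraries. Herpud1 came second, at 414 ± 38.5 in Abstinence, 505 ± 46.8 in Maintenance and 423 ± 47.0 in Saline libraries. In Saline libraries Hsp90b1 (291 ± 12.5), Xbp1 (284.5 ± 29.8) and Calr (268 ± 12.9) followed with means within 2 SD of each other. Sdf2l1 (232 ± 17.8) and Dnajb9 (114 ± 11.8) came below them, and Pdia4 (78.3 ± 15.9) and Manf (57.1 ± 7.40) were again within 2 SD of each other. Rrbp1, the gene with the largest fold changes, was the last, at 19.7 ± 4.59 in Abstinence, 39.3 ± 4.16 in Maintenance and 25.4 ± 2.1 in Saline libraries. Its rank was the same in all groups.

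The wider folding and stress machinery of the ER was counted in lists of other genes. Of all genes tested, 0.707% passed in Maintenance against Saline, 0.0186% in Abstinence against Saline and 0.949% in Abstinence against Maintenance. At such shares a short list holds few passing genes or none, so that a count of 0 does not show a missing response. Of 30 further ER folding factors, 1 rose in Maintenance against Saline, the transmembrane disulfide reductase gene Tmx1, at 197 ± 24.3 CPM in Maintenance and 160.3 ± 13.3 CPM in Saline libraries (log2 fold change 0.30 ± 0.07, adjusted p = 0.0478), with a list median of 0.02. Maintenance 8, the library with choroid plexus markers, was the highest of its group for Tmx1, at 242 CPM beside a median of 188 CPM. Its part in the Tmx1 call was not tested. The folding factors that usually accompany BiP lay close to their Saline level: log2 fold changes were 0.03 ± 0.06 for Canx, which encodes calnexin, and -0.01 ± 0.06, -0.03 ± 0.07 and 0.10 ± 0.08 for the disulfide isomerases Pdia3, P4hb and Pdia6. Dnajb11, Dnajc3 and Creld2, common targets of the response, had log2 fold changes of 0.07 ± 0.08, 0.13 ± 0.10 and 0.14 ± 0.11. In Abstinence against Maintenance, Dnajb11 was at -0.28 ± 0.08 (edgeR adjusted p = 0.116), Dnajc3 at -0.10 ± 0.10 and Creld2 at -0.28 ± 0.11 (adjusted p = 0.312). The 30 folding factors had 11 positive and 19 negative values there, with a median of -0.02, and 0 passed. Hyou1, an exchange factor of BiP, was scarce, at 2.30 CPM in Maintenance and 6.34 CPM in Saline libraries (-1.46 ± 0.76, adjusted p = 0.476).

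Of 21 genes of ER-associated degradation, 0 passed in any of the 3 comparisons, beside at most 0.949% of all genes. The medians of these 21 were -0.02 in Maintenance against Saline, -0.03 in Abstinence against Saline and -0.05 in Abstinence against Maintenance. Edem1, a lectin that marks glycoproteins for degradation, averaged 101 CPM in Maintenance and 136 CPM in Saline libraries, and all 8 Maintenance libraries were below the Saline median (-0.43 ± 0.14, adjusted p = 0.155). Sel1l and Syvn1, scaffold and ubiquitin ligase of the same complex as Herpud1, had log2 fold changes of -0.15 ± 0.07 and -0.11 ± 0.22, with the sign opposite to that of Herpud1. Derl3 was below 1 CPM on average in all groups. Among 28 genes of translocation and glycosylation, 1 fell in Abstinence against Maintenance: Sec62, part of the protein-import channel and a receptor for the removal of surplus ER, at 211 ± 13 CPM in Abstinence and 263 ± 42.1 CPM in Maintenance libraries (-0.32 ± 0.08, adjusted p = 0.0425). In Maintenance against Saline its log2 fold change was 0.28 ± 0.07 (adjusted p = 0.0736). Maintenance 8 was the highest of its group for Sec62 as well, at 349.5 CPM beside a median of 247 CPM. Its part in the Sec62 call was not tested.

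Rrbp1 shares its place on ER sheets with Ckap4 and Ktn1, the other coiled-coil proteins there. Ckap4 had log2 fold changes of 0.07 ± 0.22 in Maintenance against Saline and 0.12 ± 0.22 in Abstinence against Maintenance, and Ktn1 of 0.00 ± 0.13 and 0.10 ± 0.13 in the same comparisons. Of the 10 genes listed for ER membrane shape, 0 passed in any comparison, beside at most 0.949% of all genes. Sec61a1, the pore through which chains from Rrbp1-bound ribosomes pass, averaged 145 CPM in Maintenance and 161 CPM in Saline libraries (-0.15 ± 0.09, adjusted p = 0.593).

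**Figure D4:**
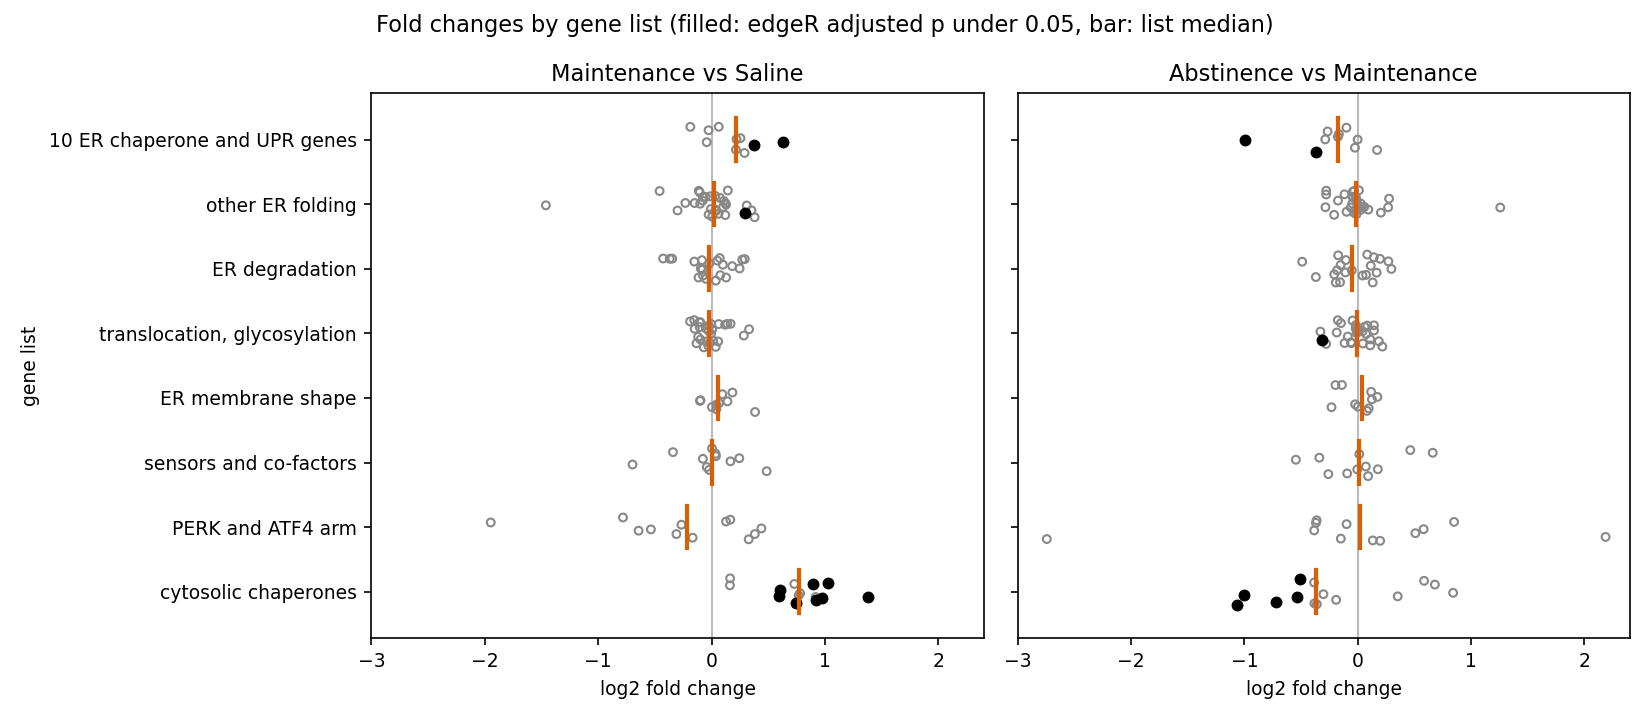
Log2 fold change of every tested gene of 8 lists in Maintenance against Saline (left) and Abstinence against Maintenance (right); filled points have an edgeR adjusted p under 0.05 over all genes and orange bars are list medians. The 10 genes have medians of 0.22 and -0.17, the 6 other ER lists have medians between -0.22 and 0.05 at left with 1 filled point, and the cytosolic chaperones have medians of 0.78 and -0.37 with 8 and 5 filled points.

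Of 11 sensors and co-factors, 0 passed in any comparison, beside at most 0.949% of all genes. Atf6 had a log2 fold change of 0.04 ± 0.11 in Maintenance against Saline. Ern1, which encodes IRE1, averaged 2.41 CPM in Maintenance and 3.90 CPM in Saline libraries (-0.70 ± 0.38, adjusted p = 0.51), and Eif2ak3, which encodes PERK, 12.2 CPM in Maintenance and 8.72 CPM in Saline libraries (0.49 ± 0.22, adjusted p = 0.367). In Abstinence against Maintenance, Eif2ak3 was at -0.55 ± 0.23 (edgeR adjusted p = 0.338), Ern1 at 0.66 ± 0.39 (adjusted p = 0.597) and Atf6 at 0.01 ± 0.11. Of 12 genes of the PERK and ATF4 arm, 0 passed in any comparison, beside the same share of all genes. Their median was -0.22 in Maintenance against Saline, with 5 positive and 7 negative. Scarce genes with wide errors entered this median, such as Chac1 (-0.78 ± 1.72, at 0.335 CPM in Maintenance and 0.577 CPM in Saline libraries). Ppp1r15a, which encodes GADD34 and restores translation, averaged 1169 ± 198 CPM in Maintenance and 862 ± 171 CPM in Saline libraries, with 7 of 8 Maintenance libraries above the Saline median (0.44 ± 0.12, adjusted p = 0.0747). Its constitutive counterpart Ppp1r15b had the opposite sign, -0.31 ± 0.13 in Maintenance against Saline and 0.51 ± 0.14 in Abstinence against Maintenance (adjusted p = 0.0658). Atf4 itself had -0.17 ± 0.08 (adjusted p = 0.44) and Ddit3, which encodes CHOP, 0.17 ± 0.12 (adjusted p = 0.646) in Maintenance against Saline. Atf3 averaged 1905 ± 377 CPM in Maintenance and 1518 ± 347 CPM in Saline libraries (0.33 ± 0.13, edgeR adjusted p = 0.263). In Abstinence against Maintenance this arm had 6 positive and 6 negative values and a median of 0.02. Ppp1r15a was at -0.38 ± 0.12 (edgeR adjusted p = 0.132), Ddit3 at -0.37 ± 0.12 (adjusted p = 0.15), Atf3 at -0.15 ± 0.13 and Atf4 at 0.13 ± 0.09. For Ppp1r15a and Ddit3, all 7 Abstinence libraries were below the Maintenance median.

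The cytosol has its own Hsp70 and Hsp90, and their values stand beside those of the ER forms. Of 14 cytosolic chaperones, 8 rose in Maintenance against Saline, 2 rose in Abstinence against Saline and 5 fell in Abstinence against Maintenance. Of all genes tested, 0.335% passed as higher, 0.0186% in either direction and 0.552% as lower in these comparisons, in the same order. Hspa8, the constitutive cytosolic Hsp70, averaged 1733 ± 262 CPM in Abstinence, 3472 ± 405 CPM in Maintenance and 1866 ± 193 CPM in Saline libraries, and its log2 fold change in Maintenance against Saline was 0.90 ± 0.09 (adjusted p = 1.1e-06). Hsp90ab1, a cytosolic Hsp90, averaged 1012 ± 277 CPM in Abstinence, 1463 ± 220 CPM in Maintenance and 872 ± 99.6 CPM in Saline libraries, with 0.75 ± 0.12 in Maintenance against Saline (adjusted p = 0.00132). Hsph1, an exchange factor of the cytosolic Hsp70, was 2.61-fold higher in Maintenance (adjusted p = 1.95e-05) and 2-fold higher in Abstinence (adjusted p = 0.0196), each against Saline. Hspa8 and Hsp90ab1 have many pseudogene copies, and how reads that match several places were counted is not given in the sources used here.

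Whether the cytosolic forms moved more than their ER counterparts was tested within libraries, a test chosen after the values were seen. The log2 ratio of Hspa8 to Hspa5 averaged 0.26 ± 0.21 in Maintenance and -0.26 ± 0.11 in Saline libraries (SD, n = 8 each), a difference of 0.52 (two-sided exact permutation p = 0.000622, adjusted p = 0.00186 over 6 tests), with 8 of 8 Maintenance libraries above the Saline median. In Abstinence it averaged -0.38 ± 0.10, with a difference of -0.64 from Maintenance (exact permutation, adjusted p = 0.00186) and of -0.12 from Saline (adjusted p = 0.0561). All 7 Abstinence libraries had a lower ratio of Hspa8 to Hspa5 than every Maintenance library. For Hsp90ab1 over Hsp90b1 the ratio averaged 0.60 ± 0.26 in Maintenance and 0.08 ± 0.17 in Saline libraries, again a difference of 0.52 (exact permutation, adjusted p = 0.00186). In Abstinence the same ratio averaged 0.22 ± 0.25, with a difference of -0.38 from Maintenance (adjusted p = 0.0221) and of 0.14 from Saline (adjusted p = 0.221), each by an exact permutation test. The smallest p these permutations can give is 0.000155.

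Over the 23 libraries, which share their group structure, the genes whose log2 CPM was most like that of Hspa5 among the 9458 genes whose log2 CPM averaged 2 or more were Hspa8 (Pearson r 0.85, Spearman rho 0.88), Stip1 (0.82 and 0.84), Atp6v1d (0.82 and 0.78), Cct7 (0.82 and 0.77) and Cacybp (0.79 and 0.73). For Rrbp1 they were Acin1 (0.87 and 0.85), Tpr (0.87 and 0.88), Hspa8 (0.85 and 0.79), Stip1 (0.83 and 0.78) and Hist1h1c (0.82 and 0.84). None of these 8 genes is on the lists of ER genes, and Hspa8 and Stip1 appear beside both. The values describe these libraries only, and differences between the groups contribute to them.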

How the data were processed

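Counts per gene were the deposited values: whole numbers for 35976 genes in 23 libraries, from libraries that the authors made with a low-input kit. The tools listed in the submitters' processing notes are STAR 2.7.10a and StringTie 2.1.5, Trim Galore 0.6.7 with cutadapt 1.18, DESeq2 1.38.3 and the build mm10 (GRCm38); their settings and the strand of the reads are not given in the sources used here. A second deposited table held the same counts for 17 libraries (5 Saline, 5 Maintenance, 7 Abstinence; 0 values differed) and served 1 alternative. The members and lists were chosen with earlier results of these data known. Genes were kept with filterByExpr (minimum count 10, minimum total 15) and scaled with TMM factors, which also scale the CPM. All 23 libraries entered 1 quasi-likelihood fit by group (edgeR 4.0.16, R 4.3.3; robust = TRUE), with Benjamini-Hochberg adjustment over 16121 genes and a threshold of 0.05. The SE is the log2 fold change divided by the square root of F. The common biological coefficient of variation was 0.831. Marker lists were compared as means of log2 CPM (prior count 2) with two-sided exact permutation tests over 33 tests. Alternatives were other scaling factors and filters, DESeq2 1.42.0, limma voom 3.58.1 with quality weights, robust = FALSE, only the compared groups, a replicate block, subsets of libraries, marker covariates and each library left out. Simulated data with known changes were used to check the fit. Of 242 listed genes, 238 matched the table. Beside the 10 members, the text names other ER genes picked by name, list genes that passed or had small p-values, 3 cytosolic chaperones and the 5 genes most like Hspa5 and Rrbp1; Ngly1, Derl2 and other small-p genes without a call are given by their lists' counts. Promoter windows are RefSeq's and were matched by symbol for 9 of the 10 members; Manf had none.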

Additional observations from a re-analysis of the deposited data

Results flagged for a closer look

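In 3 of 30 combinations of member and group, 1 library stood apart from the rest of its group by Dixon's 95% criterion on the CPM; chance flags about 1 in 20 such groups. Hsp90b1 was at 1160 CPM in Maintenance 8, with the other 7 Maintenance libraries between 878 and 972 CPM. Manf was at 243.2 CPM in the same library, with the others between 106 and 168 CPM. Maintenance 8 also held the choroid plexus markers, whose part in these values was not tested. Rrbp1 was at 151.4 CPM in Abstinence 3, with the other 6 Abstinence libraries between 77.1 and 108 CPM.

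The effects in the 2 methamphetamine groups differed for 2 members by the test of Abstinence against Maintenance, in which the shared Saline libraries cancel. The effect in Abstinence minus that in Maintenance was -0.37 on the log2 scale for Hspa5 (edgeR adjusted p = 0.0146, lower than the Maintenance median in 7 of 7 Abstinence libraries) and -1 for Rrbp1 (adjusted p = 3.9e-06, 7 of 7).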

How the results depend on the processing

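Rrbp1 and Hspa5 passed in Maintenance against Saline and in Abstinence against Maintenance whichever of the 23 libraries was left out. The number of members passing in Maintenance against Saline, 2, became 4 with DESeq2, 6 with limma voom and 0 with marker covariates, and was 2 to 3 with single libraries left out. In Abstinence against Saline, 0 became 1 with limma voom and was 0 to 1 with single libraries left out (1 without Abstinence 3). In Abstinence against Maintenance it was 2 to 3 throughout. Of 1050 repeated fold changes of members, 3 lost and 23 gained a call. Counted on values rounded to 2 decimals, with rounded values of 0 left out, the sign turned in 23 others. They were of 5 genes (Pdia4, Hspa5, Manf, Calr and Xbp1), all without a call in either fit. The largest of these was Pdia4 with marker covariates, at 0.28 in Maintenance and 0.27 in Abstinence against Saline. Sdf2l1 in Abstinence against Maintenance, at 0.00, was left out by this rule. It ran from -0.02 to 0.05 under the alternatives other than leaving out single libraries.

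The count over all genes moved more. In Maintenance against Saline, 114 became 351 with DESeq2, 413 with limma voom, 57 with only the 2 groups, 176 in the 17 libraries and 28 with marker covariates, and ranged from 42 to 197 with single libraries left out, at 70 or fewer without Saline 1, 2, 3 or 4 and 197 without Saline 8. Its split of 54 higher and 60 lower turned to 198 and 153 with DESeq2 and 89 and 64 with the stricter filter. It turned to 123 and 53 in the 17 libraries and 36 and 21 with only the 2 groups. More genes stayed lower with upper-quartile factors (38 and 53), no filter (39 and 45) and robust = FALSE (51 and 61). In Abstinence against Saline, 3 became 6 with the stricter filter, 36 with DESeq2, 208 with limma voom, 5 with only the 2 groups, 56 in the 17 libraries, 15 without Maintenance 6, 7 and 8 and 0 with marker covariates, and ranged from 1 to 15 with single libraries left out (15 without Saline 8); its split of 2 higher and 1 lower was 1 and 1 with upper-quartile factors, and turned to 16 higher and 20 lower with DESeq2, 2 and 3 with only the 2 groups, 1 and 3 with the replicate block and 6 and 9 without Maintenance 6, 7 and 8. In Abstinence against Maintenance, 153 became 242 with the stricter filter, 471 with DESeq2, 340 with limma voom, 64 with only the 2 groups and 238 in the 17 libraries, and ranged from 89 (without Abstinence 3; 92 without Abstinence 4 and 100 without Abstinence 7) to 265 (without Maintenance 8). The cause of these shifts was not tested.

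Replicate numbers did not pair the libraries: deviations from the group means correlated at -0.12 to 0.092 over 22 pairs of the same number, 0 of them over 0.1, and 1 library correlated best with its own number. With the replicate block, 69 genes and 2 members passed in Maintenance against Saline, 4 genes and 0 members in Abstinence against Saline and 126 genes and 3 members in Abstinence against Maintenance.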
